A study of Mus musculus with 9 samples.

Results

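The proximal miRNAs of the Dlk1-Dio3 region, from miR-770 to miR-370, were taken as every known mouse miRNA name built on one of 17 numbers of that stretch, with either arm. They were 35 of the 1607 known miRNA names counted in whole mouse kidneys taken at embryonic day 16.5. Small RNA was sequenced in 9 libraries: 3 from wild-type controls, 3 carrying the DROSHA-E1147K transgene and 3 labelled DROSHA knockout, here called control, transgene and knockout 1 to 3. The series describes 2 mouse lines, and the labels name neither the promoter or Cre that drives each change, nor the cells that carry it, nor the sex or strain of the embryos. The labels do not state that replicate libraries are separate embryos, and the p-values then reflect library-to-library spread that could be technical. Whole kidney holds many cell types, and in such tissue more cells of a type and more RNA per cell cannot be told apart.

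The Dlk1-Dio3 region is imprinted. Its protein-coding genes, Dlk1, Rtl1 and Dio3, are expressed from the paternal chromosome, and its long non-coding RNAs, among them Meg3 and Rian, and its miRNAs come from the maternal one. Several of the miRNAs lie opposite the coding sequence of the retrotransposon-derived gene Rtl1 and pair with its mRNA perfectly, which lets them direct its cleavage. DROSHA is the nuclear RNase that cuts miRNA hairpins out of the primary transcript. E1147K changes a metal-binding residue of its catalytic domain and is a recurrent mutation of Wilms tumour, an embryonal kidney cancer.

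The members came from 18 loci within 54.6 kb of chromosome 12 (chr12:109563692-109618336, mm10), 16 on the plus strand and 2 on the minus strand. Mir770 lay within Meg3, in an exon of 1 of its 4 transcripts that spanned it. Mir673, Mir493, Mir337, Mir540, Mir665, Mir3070a and Mir3070b followed between Meg3 and Rtl1, with Mir3544 on the minus strand opposite Mir337. These 9 loci form the Meg3 stretch below. Mir431, Mir433, Mir127, Mir434 and Mir136 lay opposite the coding exon of Rtl1, and Mir3071, opposite Mir136, on the same strand as Rtl1. All 6 loci form the Rtl1 antisense stretch, so that its 12 arms include the 2 of miR-3071 from the Rtl1 strand. Mir341, Mir1188 and Mir370 lay in introns of the 2 Rian transcripts that span them and form the Rian stretch.

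All 35 members matched a RefSeq mature sequence (assembly GRCm38.p6). The sequences below are those of the most abundant members and of the arms on which the comparisons turn, with the seed, bases 2 to 8, in capitals.
miR-127-3p: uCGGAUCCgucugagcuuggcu
miR-127-5p: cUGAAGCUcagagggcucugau
miR-431-5p: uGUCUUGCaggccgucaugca
miR-431-3p: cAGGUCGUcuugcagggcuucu
miR-434-3p: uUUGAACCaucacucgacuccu
miR-434-5p: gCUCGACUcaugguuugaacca
miR-433-3p: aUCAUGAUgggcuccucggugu
miR-136-3p: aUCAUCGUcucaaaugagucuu
miR-136-5p: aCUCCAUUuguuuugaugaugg
miR-341-3p: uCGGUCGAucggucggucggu
miR-341-5p: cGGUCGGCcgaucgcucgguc
miR-337-5p: cGGCGUCAugcaggaguugauu
miR-370-3p: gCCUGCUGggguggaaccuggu
miR-493-3p: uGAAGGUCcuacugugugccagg
miR-540-3p: aGGUCAGAggucgauccugg
miR-673-5p: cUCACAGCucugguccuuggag
miR-673-3p: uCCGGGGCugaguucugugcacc

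The 35 sequences were 19 to 26 bases long, 13 began with U, and their GC content ran from 36.4% in both miR-136 arms and miR-3071-3p to 76.2% in miR-341-5p. Only miR-3070-3p and miR-3070-2-3p shared a seed with each other, so the stretch is not a seed family. Of the others, miR-370-5p shared its seed with miR-1193-3p, miR-540-3p with miR-6915-5p and miR-673-5p with miR-6985-3p. Close copies matter for counting, and the 2 miR-3070 names below differ at bases after the seed.
miR-3070-3p: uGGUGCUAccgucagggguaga
miR-3070-2-3p: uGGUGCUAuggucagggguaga

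All 10 arms of the 5 plus-strand hairpins opposite Rtl1 were complementary over their full length to the Rtl1 transcript of 6358 bases, within its coding part. Among 1644 other mouse miRNA names in the table, 1 was, miR-432. The most abundant arm of each of the 3 leading hairpins pairs with the following stretches of Rtl1, given as DNA 5′ to 3′ with the bases opposite the seed at the right-hand end.
Rtl1 opposite miR-127-3p: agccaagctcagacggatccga
Rtl1 opposite miR-431-5p: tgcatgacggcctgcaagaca
Rtl1 opposite miR-434-3p: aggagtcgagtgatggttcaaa
These sites start at bases 2642, 5072 and 965 of the transcript. Rtl1 mRNA was not measured in these small RNA libraries.

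The libraries held 24350500 to 34896599 reads of known miRNAs each. Kidney tubule miRNAs (miR-192-5p, miR-194-5p, miR-215-5p and miR-204-5p) were counted in every library, at a summed 4207 to 6653 counts per 1e6 miRNA reads (CPM) in controls, 2675 to 3517 in transgenes and 1970 to 2806 in knockouts. The genotypes cannot be checked from small RNA. Knockout 3 stood apart in muscle and erythroid markers, whereas transgene 2 lay below transgene 1 in both. Knockout 3 and transgene 2 had the lowest sums of epithelial markers. The 6 striated muscle miRNAs, all above 0 in every library, summed to 10514 CPM in knockout 3, against 458 to 2073 in the other knockouts, 468 to 1641 in transgenes and 221 to 1254 in controls. The 5 erythroid miRNAs summed to 113627 CPM in knockout 3, 71846 and 73541 in knockouts 1 and 2, 27377 to 80419 in transgenes and 21453 to 52757 in controls. The 5 epithelial miRNAs of the miR-200 family summed to 12885 CPM in knockout 3 and 22193 in transgene 2, against 28386 to 34062 in the other libraries of both groups and 35405 to 40208 in controls.

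The proximal miRNAs together took a larger share of the miRNA reads in every transgene and every knockout library than in any control. Their share was 1.01%, 0.974% and 1.25% in controls 1 to 3. In the transgene libraries it was 1.73%, 2.72% and 2.07%, and in the knockouts 1.89%, 2.26% and 4.27%. The means were 1.08% ± 0.151 in controls, 2.17% ± 0.503 in transgenes and 2.81% ± 1.28 in knockouts (SD, n = 3 each). The groups of DROSHA change did not overlap the controls, and the highest library, knockout 3, was also the one with the most muscle and erythroid miRNA and the least epithelial miRNA. The part of those cells in this level was not tested. Exact 95% binomial intervals of the shares were at most 0.015 percentage points wide and cover counting error only.

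**Figure D1:**
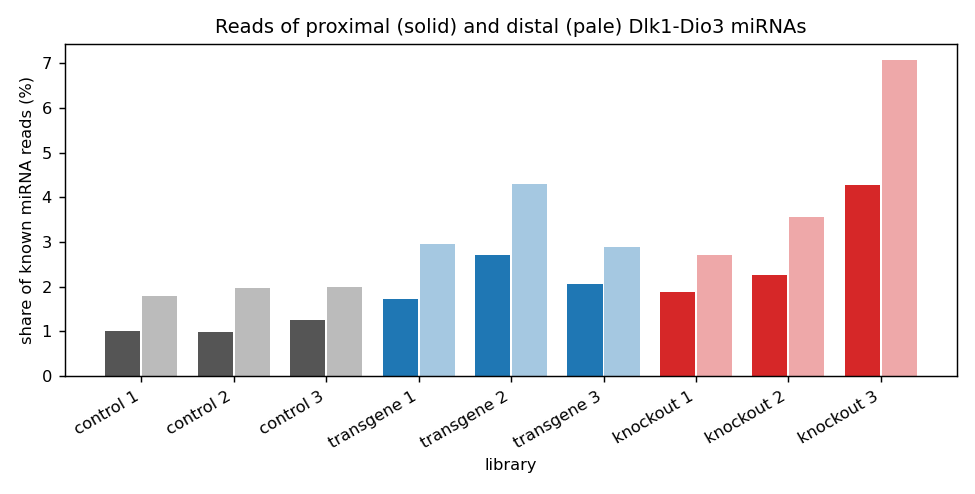
Share of known miRNA reads (%, vertical axis) taken by the proximal (solid bars) and distal (pale bars) Dlk1-Dio3 miRNAs in each of the 9 libraries (horizontal axis; grey control, blue transgene, red knockout). The proximal share runs from 0.974% to 1.25% in controls and reaches 4.27% in knockout 3.

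The distal miRNAs of the region, a list of 75 names beginning with miR-379, moved with the proximal ones. Their share was 1.91% ± 0.115 in controls, 3.38% ± 0.793 in transgenes and 4.45% ± 2.32 in knockouts. The proximal names made up 36.0% ± 2.63 of the reads of both stretches in controls, 39.1% ± 2.48 in transgenes and 39.2% ± 1.77 in knockouts. Both means lay above the control mean by somewhat more than the SD of any group. The libraries overlapped, at 33.2% to 38.5% in controls, 36.8% to 41.7% in transgenes and 37.6% to 41.1% in knockouts. The 3 most abundant distal miRNAs were miR-411-5p, miR-379-5p and miR-369-5p. They had log2 fold changes of 0.48, 0.35 and 0.62 in transgenes and 0.86, 0.54 and 1.14 in knockouts against control.

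Within the proximal group, reads were concentrated on the Rtl1 antisense hairpins. Over all 9 libraries, miR-127 gave 51.7% of the members' reads, miR-431 17.4%, miR-434 12.6%, miR-341 5.18%, miR-433 4.4% and miR-337 3.38%. Each remaining hairpin gave at most 1.75%, the value of miR-136, down to 0.00233% for miR-3070 with 117 reads. miR-127-3p alone made up 51.8% ± 0.62 of the members' reads in controls, 53.5% ± 4.17 in transgenes and 50.8% ± 2.05 in knockouts. By library this share ran from 51.1% to 52.3% in controls, 50.6% to 58.2% in transgenes and 49.2% to 53.1% in knockouts. The ranges of the groups thus overlapped, though they were wider in both DROSHA groups, while the level of the stretch differed.

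Of the 35 names, 31 had enough reads to be tested, among 955 tested names in all. The 4 left out were miR-665-5p (2 to 18 reads per library), miR-1188-3p (2 to 8), miR-3070-3p (0 to 15) and miR-3070-5p (0 or 1). miR-3070-3p was counted at 0 in all 3 controls, which allows up to 3 reads in each, and at 2, 15 and 4 reads in transgenes and 2, 2 and 11 in knockouts.

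In edgeR's quasi-likelihood test with Benjamini-Hochberg adjustment over all 955 names, no member passed an adjusted p of 0.05 in any of the 4 comparisons, against a background of 0% called higher in each and 0.105% called lower between knockout and transgene (0% lower in the rest). The members nonetheless lay on one side. Against control, all 31 tested members had a positive log2 fold change in transgenes (background 46.7%) and all 31 in knockouts (background 48.9%). The median was 0.83 in transgenes, where the median of all tested names was -0.04, and 1.18 in knockouts, where it was -0.03. The distal list had medians of 0.80 and 1.33. Both comparisons share the 3 control libraries, and neighbouring miRNAs of one region are not independent, so neither the 31 members nor the comparisons count as separate evidence.

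**Figure D2:**
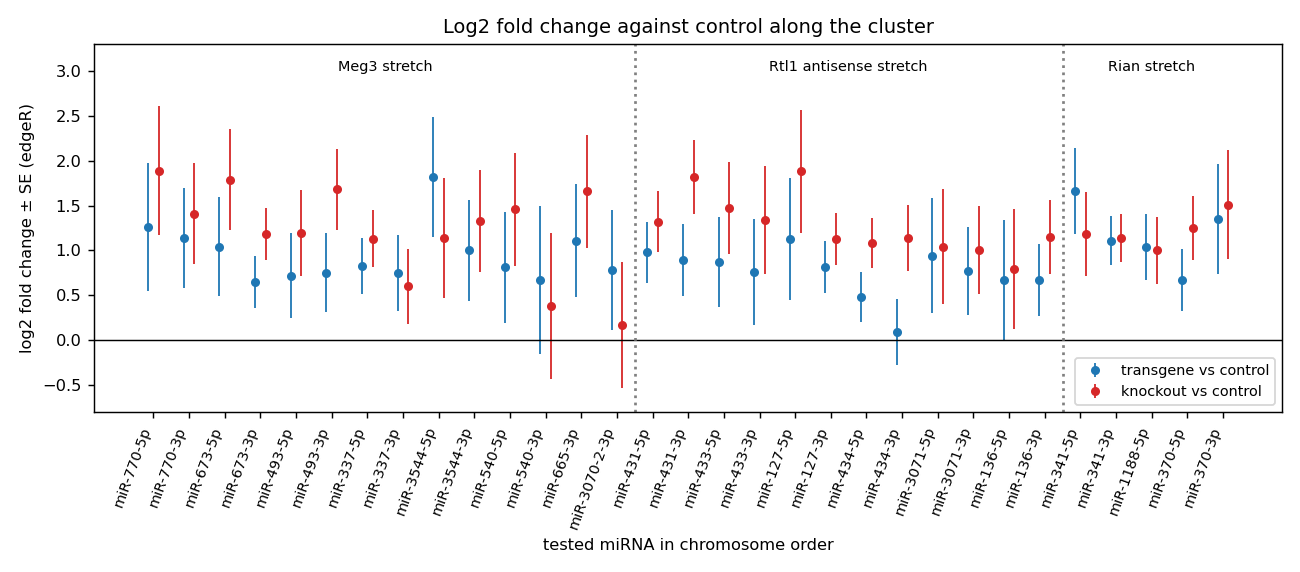
Log2 fold change against control (vertical axis, points; bars are the standard error of the edgeR fit) of the 31 tested miRNAs in chromosome order (horizontal axis), for transgene (blue) and knockout (red), with dotted lines between the 3 stretches. All points lie above 0, from 0.09 for miR-434-3p in transgenes to 1.89 for miR-770-5p in knockouts.

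In the transgene comparison, the libraries of the 2 groups did not overlap for 16 of 31 members, all higher in transgenes, where 11.9% of all names were higher without overlap. An unadjusted p under 0.05 was reached by 7 of 31, all higher (background 5.24%): miR-341-3p, miR-341-5p, miR-431-5p, miR-127-3p, miR-1188-5p, miR-3544-5p and miR-337-5p. By stretch these were 3 of 5 members in Rian, 2 of 12 in the Rtl1 antisense stretch and 2 of 14 near Meg3, with median log2 fold changes of 1.11, 0.79 and 0.82. DESeq2 called 0 members in this comparison (background 0.209%). edgeR adjusted p-values of the members ran from 0.458 to 0.962. The count of 7 moved with the scaling and the fit. It was 13 on total miRNA reads (9.74% of all names), and 12 with TMM factors from the other miRNAs (8.27%) or on all counted reads (7.72%). It was 11 in DESeq2 (6.49%), 11 of 35 without the filter on low counts (5.1%), and 23 of 30 when only these 2 groups were fitted (13.6%). It also moved with single libraries, given here with the share of all names in brackets. Without control 1, 2 or 3 it was 3 of 33 (2.08%), 4 of 33 (2.37%) or 8 of 33 (3.8%). Without transgene 1, 2 or 3 it was 11 of 33 (4.78%), 4 of 32 (2.61%) or 13 of 33 (7.03%). The knockouts enter the estimate of the spread. Without knockout 1, 2 or 3 it was 14 of 32 (8.29%), 10 of 33 (5.44%) or 23 of 31 (11.7%).

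In the knockout comparison, 15 of 31 members were higher without overlap (background 12.9%), and without knockout 3 the number was again 15. Over all names the share without knockout 3 was 18.2%. Scaled to total miRNA reads in place of TMM, 23 members were higher without overlap, with 21.2% of all names. An unadjusted p under 0.05 was reached by 23 of 31, all higher (background 15.6%), and by 12 of 31 without knockout 3 (11.6% of all names). It was reached by 13 of 33 without control 2 (9.0%) and 15 of 33 without control 1 (9.1%). By stretch the 23 were 5 of 5 members in Rian, 8 of 12 in the Rtl1 antisense stretch and 10 of 14 near Meg3. The medians of these stretches were 1.18, 1.15 and 1.26. edgeR adjusted p-values ran from 0.108 to 0.896, but DESeq2 called 13 members higher (background 7.75%), and without knockout 1 edgeR called 10, among 44 of 1001 names called higher (4.4%). The median over the members was 0.81 without knockout 3.

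Taking both DROSHA groups together against control, all 31 members were again positive (background 47.1%), with a median of 1.05. Of these, 13 were above all controls in each of the 6 libraries (background 7.02%), and 21 had an unadjusted p under 0.05 (background 11.3%). Scaled to total miRNA reads, 20 lay above all controls, as did 11.2% of all names. The count by p was 11 of 33 without control 1 (5.24% of all names) and 12 of 33 without control 2 (5.74%). edgeR adjusted p-values ran from 0.155 to 0.728, and DESeq2 called 12 members (background 5.03%).

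miR-127-3p, the most abundant member and one of the miRNAs known to direct cleavage of Rtl1 mRNA, was counted at 5778, 5646 and 7085 CPM in controls. It was at 9780, 12143 and 10706 CPM in transgenes and at 8993, 11248 and 20394 in knockouts. All 6 libraries with a DROSHA change lay above all controls, and knockout 3 lay far above the other 5. The means were 6170 ± 795, 10876 ± 1191 and 13545 ± 6038 CPM, with log2 fold changes of 0.82 (SE 0.29) and 1.13 (SE 0.29; edgeR adjusted p = 0.108).

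miR-431-5p, from the hairpin that lies nearest the 3′ end of Rtl1, was at 1667, 1852 and 2124 CPM in controls, 3705, 4613 and 2777 in transgenes and 2647, 4594 and 6801 in knockouts. Its groups also did not overlap the controls. The log2 fold changes were 0.98 (SE 0.34) in transgenes and 1.32 (SE 0.34; edgeR adjusted p = 0.108) in knockouts. Its minor arm, miR-431-3p, had the smallest p of all members in knockouts. It was at 8.80, 8.21 and 10.9 CPM in controls, 12, 24.7 and 15.1 in transgenes and 20.8, 27.9 and 50.3 in knockouts, with folds of 0.89 (SE 0.40) and 1.82 (SE 0.41; adjusted p = 0.108).

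miR-434-3p was the member with the smallest difference in transgenes. It was at 1485, 1346 and 1819 CPM in controls and at 1835, 1621 and 1484 in transgenes, so these groups overlapped widely (log2 0.09, SE 0.37). In the knockouts it was at 1998, 2519 and 5717 CPM, above every control and every transgene library (log2 against control 1.14, SE 0.37, or 0.64 without knockout 3). The direct comparison of knockout with transgene gave a log2 fold change of 1.05 (SE 0.37), the largest of the 31 members, with an edgeR unadjusted p of 0.0201 and an adjusted p of 0.643, and 0.48 without knockout 3. The other arm of the same hairpin, miR-434-5p, was at 205, 192 and 208 CPM in controls, 237, 315 and 293 in transgenes and 303, 373 and 600 in knockouts. Unlike the 3p arm, its transgene libraries all lay above its controls (log2 0.48, SE 0.28).

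miR-433-3p was at 431, 443 and 553 CPM in controls, 679.4, 1227 and 504 in transgenes and 518, 634 and 2469 in knockouts. In both groups one library lay well above the rest and another lay within the control range. Its log2 fold change in knockouts was 1.34 (SE 0.60), and 0.37 without knockout 3. miR-136-3p was at 174, 135 and 188 CPM in controls, 270, 325 and 198 in transgenes and 199, 304 and 605 in knockouts, above the controls in every library (folds 0.67, SE 0.40, and 1.15, SE 0.41, the latter 0.70 without knockout 3). Its minor arm miR-136-5p overlapped in all groups, at 82.0, 33.1 and 45.2, then 50.7, 126.9 and 77.2, then 53.6, 32.9 and 190 CPM. The fold in knockouts was 0.79 (SE 0.67), and -0.22 without knockout 3.

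**Figure D3:**
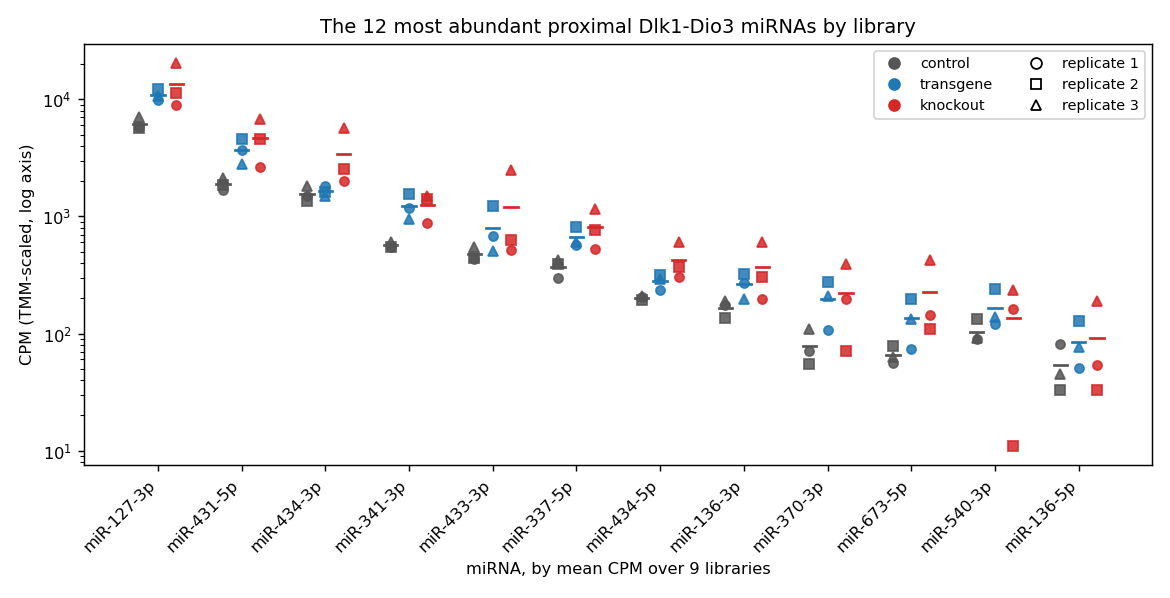
CPM (vertical axis, log scale) of the 12 most abundant proximal miRNAs (horizontal axis) in each library. Colours give the group, symbols the replicate number and short lines the group mean; miR-434-3p is at 1484 to 1835 CPM in transgenes, within reach of its controls, and miR-540-3p is at 11 CPM in knockout 2.

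In the Rian stretch, miR-341-3p separated the groups most clearly. Its controls lay close together at 550, 550 and 606 CPM, its transgenes at 1170, 1557 and 954 and its knockouts at 878, 1397 and 1482. The means were 568 ± 32.3, 1227 ± 305 and 1252 ± 327 CPM, with folds of 1.11 (SE 0.27; edgeR adjusted p = 0.458) and 1.14 (SE 0.27; adjusted p = 0.108). The knockout-to-transgene fold was 0.03 (SE 0.26), and with each library left out in turn the folds against control were 0.97 to 1.38. Knockout 3, the highest knockout in 29 of the 31 members, was here only slightly above knockout 2. The minor arm miR-341-5p was at 2.64, 2.21 and 1.8 CPM in controls, 8.48, 9.61 and 2.96 in transgenes and 3.07, 5.94 and 6.08 in knockouts (folds 1.66, SE 0.48, and 1.18, SE 0.47). miR-370-3p overlapped, at 70.5, 54.7 and 109 CPM in controls, 106, 278 and 211 in transgenes and 199, 70.8 and 396 in knockouts (folds 1.35, SE 0.61, and 1.51, SE 0.61, the latter 0.87 without knockout 3).

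Of the Meg3 stretch, miR-337-5p was the most abundant, at 300, 394 and 422 CPM in controls, 571, 809 and 610 in transgenes and 529, 762 and 1157 in knockouts. All 6 libraries lay above the controls (folds 0.83, SE 0.31, and 1.13, SE 0.32). miR-673-5p was at 55.7, 78.4 and 62.9 CPM in controls, 73.1, 199 and 134.2 in transgenes and 144, 108 and 428 in knockouts, with transgene 1 inside the control range (folds 1.04, SE 0.55, and 1.79, SE 0.56, the latter 1.04 without knockout 3). Its 3p arm varied less. miR-673-3p was at 6.35, 7.88 and 7.98 CPM in controls, 13, 11.5 and 10.2 in transgenes and 13.3, 13.9 and 22.9 in knockouts, and no groups overlapped (folds 0.65, SE 0.29, and 1.18, SE 0.29).

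miR-493-3p was at 9.17, 9.54 and 10.2 CPM in controls, 14.1, 19.1 and 15.4 in transgenes and 21.2, 16.1 and 55.3 in knockouts. The controls were again tight, and both other groups lay above them (folds 0.75, SE 0.44, and 1.68, SE 0.45; the latter 1.04 without knockout 3). miR-540-3p behaved differently. It was at 90.1, 132 and 90.9 CPM in controls, 120, 240 and 138 in transgenes, and 161, 11 and 235 in knockouts, so that knockout 2 lay far below every other library. Its knockout fold was 0.38 (SE 0.81), 0.89 without knockout 2 and -0.20 without knockout 3.

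Between knockout and transgene, 25 of 31 members had a positive fold (background 53.1%) with a median of 0.34, and 2 were higher without overlap (background 4.4%), miR-434-3p and miR-673-3p, or 5 without transgene 2 (8.38% of all names). An unadjusted p under 0.05 was reached by 2, miR-434-3p and miR-431-3p (fold 0.93, SE 0.40), against a background of 3.46%, and miR-493-3p came next (0.93, SE 0.44). All 12 tested members of the Rtl1 antisense stretch were positive, with a median of 0.54, against 10 of 14 near Meg3 (0.40) and 3 of 5 in Rian (0.03). Without knockout 3 the median over the members was -0.14 and 8 members were positive, so the sign of this comparison rested on that library.

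Libraries of one group differed from each other in a way that ran across the members. Knockout 3 had the highest value of all 9 libraries in 24 of 31 members, with a median of 1.90 log2 units above the control mean. Transgene 2 was the highest transgene in 26, with a median of 1.35, against 0.63 and 0.49 for transgenes 1 and 3 and 0.47 and 0.84 for knockouts 1 and 2. Knockout 1, the lowest of its group in 23 members, and transgene 3, the lowest in 18, still had positive medians. The distal list had nearly the same medians per library, 0.72, 1.14 and 0.50 in transgenes and 0.53, 0.89 and 1.98 in knockouts. Muscle and erythroid miRNAs were highest in knockout 3 too, and the 3 pancreas and liver miRNAs were highest in transgene 2 (21600 CPM, against 1180 to 12197 in controls and 1107 to 11180 in knockouts). The 5 leukocyte miRNAs were highest in the same 2 libraries, at 606, 1297 and 566 CPM in transgenes and 780, 560 and 1420 in knockouts, against 481 to 883 in controls. The 6 neural miRNAs summed to 2409, 2397 and 4134 CPM in knockouts, again highest in knockout 3, to 3691, 3307 and 2259 in transgenes and to 4601, 3069 and 2233 in controls. Of these 6, 5 had a positive fold in knockouts and 2 in transgenes. Among the 5 leukocyte miRNAs, 3 had a positive fold in each group, and of the 3 pancreas and liver miRNAs, 3 in transgenes and 1 in knockouts. All 6 muscle and all 5 erythroid miRNAs had a positive fold in each group, against 1 of 5 epithelial and 0 of 4 tubule miRNAs. Folds were positive for 2 of 5 stromal miRNAs in transgenes and 4 in knockouts, and for 1 of 2 endothelial miRNAs in each group. The 5 stromal miRNAs summed to 38721 to 48470 CPM in controls, 41821 to 61935 in transgenes and 40743 to 63699 in knockouts, and the 2 endothelial ones to 45281 to 56517, 36662 to 45598 and 34556 to 48796. The part of other cells in the order of the libraries was not tested.

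**Figure D4:**
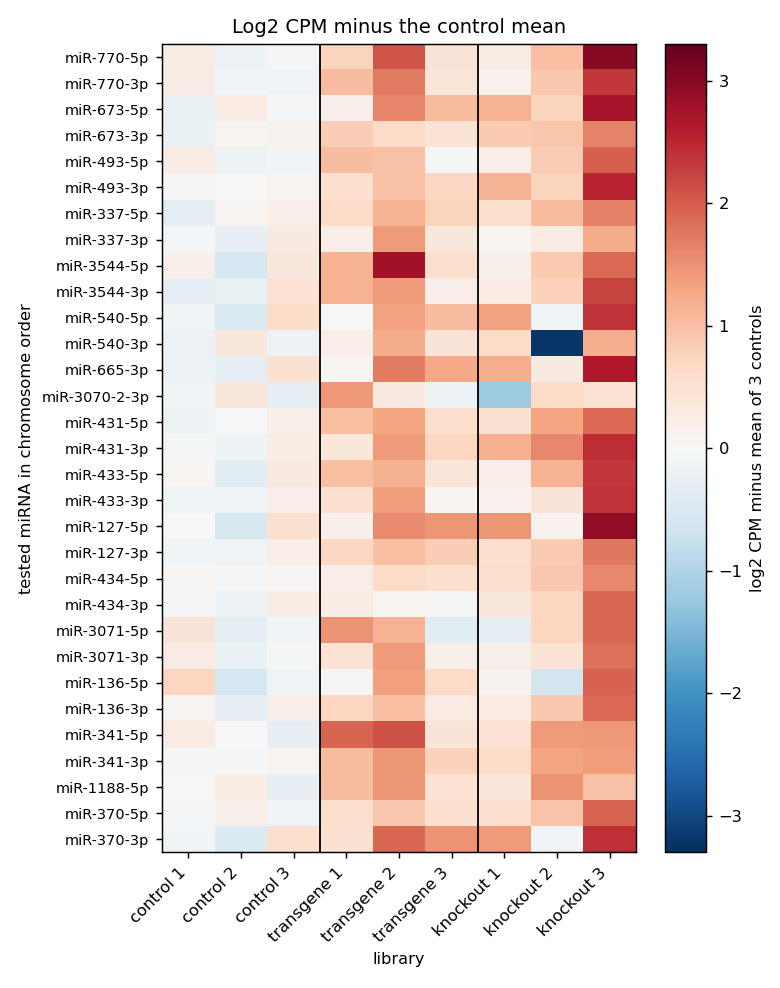
Difference of each tested miRNA's log2 CPM from the mean of the 3 controls (colour scale, log2 units) by library (columns) and miRNA in chromosome order (rows). Transgene 2 and knockout 3 are the darkest red columns, and miR-540-3p in knockout 2, at -3.21, is the deepest blue cell.

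A second pattern among libraries was noticed after the values were seen. In 8 members, miR-127-5p, miR-136-5p, miR-370-3p, miR-493-3p, miR-540-3p, miR-540-5p, miR-665-3p and miR-673-5p, knockout 2 was the lowest knockout, and in all 8 transgene 1 was the lowest transgene. Over all 955 names, transgene 1 was the lowest transgene in 64.7% of the 320 for which knockout 2 was the lowest knockout, and in 37.0% of all names, so the pattern was not particular to these members. The distal list showed it in 16 of 21. miR-127-5p illustrates it, with 5.65, 14.8 and 13.8 CPM in transgenes and 13.8, 5.41 and 38.3 in knockouts against 3.46 to 7.18 in controls. Knockout 2 thus lay within the control range there, whereas the other arm, miR-127-3p, at 11248 CPM, lay above every control in the same library. The 8 names shared no seed with one another.

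Each cut by DROSHA and then DICER leaves a 5p and a 3p arm, of which one is usually retained. For the 14 hairpins with both arms at a mean of at least 10 reads, the ratio of arms was taken as log2 of 5p reads over 3p reads, each with a pseudocount of 1. The 5p arm led in 4, miR-337, miR-431, miR-493 and miR-673, and the 3p arm in 10, and 12 kept the same leading arm in all 9 libraries. The ratio ranged from a mean of -10.25 ± 0.37 for miR-127 to 7.66 ± 0.13 for miR-431 in controls (SD, n = 3).

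Of the 42 comparisons of arm ratio, none passed: the smallest adjusted p was 0.70, and an exact two-sided permutation test of 3 libraries against 3 cannot go below 0.1. The groups were separated in 6 of the 42 comparisons, none of them between transgene and control. Each of the 6 had an exact permutation p of 0.1, so some of 42 would be separated without any difference. The share among hairpins outside the members was not taken, and the values below are description only. In miR-337 the ratio was 3.83, 4.15 and 3.8 in knockouts against 3.11, 3.74 and 3.28 in controls, a difference of 0.55. In miR-431 the ratio was 6.99, 7.36 and 7.08 in knockouts against 7.56, 7.81 and 7.6 in controls, a difference of -0.51, so the minor 3p arm differed by more than the 5p arm. In miR-770, the hairpin within Meg3, it was -0.30, -0.30 and 0.25 against -0.41, -0.44 and -0.37. miR-337 and miR-431 were also separated between knockout and transgene, by 0.38 and -0.63, as was miR-540, by 1.49. That last value included a ratio of -1.03 in knockout 2, where miR-540-3p was low, against -3.44 and -2.91 in knockouts 1 and 3.

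**Figure D5:**
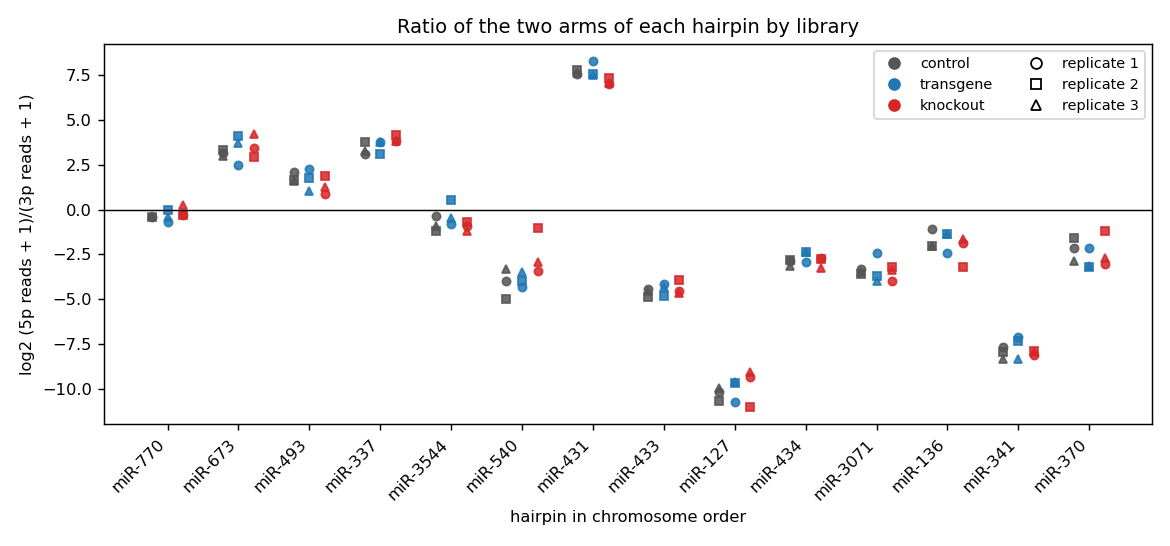
Log2 ratio of 5p to 3p reads (vertical axis, pseudocount 1) of 14 hairpins in chromosome order (horizontal axis), 1 point per library, coloured by group and shaped by replicate number. Points above 0 have more 5p reads; miR-431 lies near 7 to 8 and miR-127 near -9 to -11 in every library.

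At 2 loci both strands gave miRNAs. Reads of miR-3544 made up 0.629% ± 0.148 of the pair it forms with miR-337 in controls, 0.868% ± 0.352 in transgenes and 0.657% ± 0.211 in knockouts. Reads of miR-3071, on the strand of Rtl1, made up 8.0% ± 0.75 of the pair with miR-136 in controls, 8.28% ± 1.44 in transgenes and 7.52% ± 0.271 in knockouts. In both pairs the ranges of all groups overlapped, and the means differed by less than the SD of the transgenes, the widest. For miR-3544, the transgene mean lay above the control mean by more than the control SD. miR-3071-3p was at 20.6, 14.8 and 16.7 CPM in controls, 23.9, 45.5 and 19.3 in transgenes and 19.6, 23.7 and 60.7 in knockouts, so both groups overlapped the controls. miR-3544-5p, at about 1 CPM in controls (1.01, 0.583 and 1.18), was at 2.07, 6.44 and 1.34 in transgenes and 1.01, 1.67 and 3.44 in knockouts.

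The remaining members averaged at most 54.5 CPM over the 9 libraries. miR-493-5p, miR-337-3p, both miR-770 arms, miR-433-5p, miR-370-5p, miR-665-3p, miR-540-5p, miR-1188-5p and miR-3070-2-3p all had positive folds in both comparisons with control. The smallest of these was 0.17 (SE 0.70) for miR-3070-2-3p in knockouts, with 2 to 21 reads per library. Among the larger, miR-770-5p was at 18.9, 14.1 and 15.2 CPM in controls, 26.4, 67.4 and 21.3 in transgenes and 18.9, 31.8 and 127.3 in knockouts. Its knockout fold of 1.89 (SE 0.72) was the highest of the members, and its value in knockout 3 lay far above knockouts 1 and 2. miR-370-5p was more even, at 15.8, 18.3 and 14.9, then 24.2, 30.2 and 23.4, then 24.2, 31.3 and 61.6 CPM, with both groups above all controls (folds 0.67, SE 0.35, and 1.25, SE 0.36). miR-1188-5p, next to miR-341 in Rian, was at 5.84, 6.88 and 4.71, then 11.8, 16.0 and 8.08, then 7.53, 16.2 and 11.3 CPM, again without overlap with the controls.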

How the data were processed

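Small RNA of 9 whole-kidney samples (embryonic day 16.5, 3 libraries per group) was sequenced. Per the labels' protocols, RNA was extracted with Trizol and libraries followed the BGI protocol. Tools named in the submitters' processing notes are CASAVA 1.8 and Bowtie2, with the build mm10; the assignment of reads matching several miRNAs was not stated in the sources used here. The deposited counts are whole reads per small RNA name and sum to the total in each file header. The deposited TPM values equal the count per 1e6 reads of that total within 0.005 and were not tested.

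Mature and hairpin counts of one miRNA name were added. edgeR 4.0.16 in R 4.3.3 fitted the 955 names passing filterByExpr over all 9 libraries (TMM factors 0.882 to 1.13, group as factor, quasi-likelihood F test, Benjamini-Hochberg over all names, threshold 0.05). The scripts were tested on simulated data. CPM use TMM-scaled totals of the reads of the tested names, which were 24349350 to 34894926 per library before scaling. Alternatives were DESeq2 1.42.0, other scalings and filters, a replicate block and leaving out each library. Arm ratios used exact permutation tests, adjusted over 42. Loci and mature sequences came from RefSeq (GRCm38.p6), gene models from GENCODE. Named members are the 12 with the highest mean CPM and, per comparison, the 3 with the smallest p; others were named after their values were seen. The members, marker lists and distal list were chosen with earlier results of these data known.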

Additional observations from a re-analysis of the deposited data

Results flagged for a closer look

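Outside the miRNA rows, reads assigned to the Rfam family mir-433 were at a mean of 0.185 reads per 1e6 counted reads in knockouts (0.112, 0.126 and 0.316), above the controls (0.0469, 0 and 0.0836). The transgene libraries were at 0.129, 0.0535 and 0.0918. These are 4, 4 and 11 reads in knockouts against 2, 0 and 3 in controls, so the difference rests on few reads. Of the 7 Rfam families of these hairpins, none had more than 27 reads in a library. The family with the most reads, mir-127, was not higher in knockouts. It was at 0.0562, 0.284 and 0.172 per 1e6 in knockouts, 0.699, 0.134 and 0.428 in transgenes and 0.282, 0.238 and 0.362 in controls. Groups of 3 libraries are too small for a test of single outlying samples.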

How the results depend on the processing

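The medians over the members against control kept their sign under every alternative run: leaving out 1 library gave 0.74 to 1.07 in transgenes, 0.81 to 1.5 in knockouts and 0.85 to 1.24 in both. Between knockout and transgene the median ran from -0.14 (without knockout 3) to 0.60. The members called in knockouts were 0 in edgeR, 0 to 10 over the libraries left out (10 without knockout 1) and 13 in DESeq2, and in both groups together 12 in DESeq2. With one library left out, miR-434-3p in transgenes ran from -0.06 (without transgene 1; -0.05 without control 2) to 0.22, miR-540-3p in knockouts from -0.20 to 0.89, and miR-136-5p in knockouts from -0.22 to 1.19, both lowest without knockout 3; the cause was not tested. On unscaled miRNA totals the median of all names was 0.18 in transgenes and 0.19 in knockouts, the members' medians were 1.07 and 1.38, and 23 members in knockouts and 20 in both groups lay above all controls (21.2% and 11.2% of all names). That count, an alternative added after the data were seen, was 5 between knockout and transgene without transgene 2. With all counted reads as the denominator, the members' share in controls was 0.881%.

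Same-numbered libraries did not deviate together (r from -0.302 to 0.102 over 9 pairs, own number best in 2 of 18 checks). This check cannot exclude that same-numbered libraries shared a source or a preparation. Pairs with different numbers ran from r = -0.269 (control 2 with transgene 1) to 0.351 (transgene 3 with knockout 1). Among these pairs, control 3 with transgene 1 had 0.339, transgene 2 with knockout 3 had 0.308 and transgene 1 with knockout 2 had 0.263. Whether libraries of different numbers shared a source or a preparation was not tested. The main fit used no replicate block. With a replicate block the medians were 0.86, 1.15, 0.26 and 1.0 in the 4 comparisons and 0 members were called. That block follows the replicate number, so it cannot account for anything shared by libraries of different numbers. Depth limits the 4 untested names, and the widest SE, 0.82 for miR-540-3p in transgenes, limits single members.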
